A study of Mus musculus with 8 samples.

Results

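Choroid plexus and ependymal genes were followed in the nucleus accumbens of male mice after cocaine conditioned place preference, a test of whether mice come to prefer the compartment where they were injected. The 9 genes were chosen with earlier results of these data known. Their symbols were matched to the array's probe annotation without use of measured values. They were Ttr, Kl, Folr1, Aqp1, Cldn2, Clic6, Enpp2 and Otx2 of the choroid plexus, and Foxj1 of the ependyma. Of these, 8 were measured among 19087 genes with a symbol, by 11 probes (1 probe each for 5 genes, 2 each for Kl, Folr1 and Clic6), and Enpp2 was not analysed here. Cocaine was given at 15 mg per kg on days 2, 3 and 4, and control mice had saline instead; both went through place conditioning, and strain and age are not in the labels. Each of 4 hybridisations set a cocaine mouse against a saline mouse on a 2-colour array, 2 with the cocaine sample in Cy5 and 2 with the saline sample in Cy5, and each was read by an Axon and an Agilent scanner.

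The choroid plexus is the epithelium that hangs into the brain ventricles and secretes cerebrospinal fluid, and the ependyma is the ciliated cell layer that lines the ventricle wall and moves that fluid. The epithelium exports carrier proteins, takes up folate from blood and moves ions and water, while ependymal cells are built around motile cilia. The nucleus accumbens lies close to the lateral ventricle, so these genes are known as signs of ventricular tissue in a striatal dissection. In bulk tissue, fewer cells of a type and less RNA per cell cannot be told apart.

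The values are log2 ratios, read as cocaine over saline. The labels do not state that direction, which is likely only. Each scan was centred on its median and the 2 scans of a hybridisation were averaged, so that n = 4. The files hold ratios and no intensities: no level of any gene can be given, and neither the accumbens label nor the choroid plexus label could be checked against marker levels. The cocaine coefficient is the mean ratio of the 4 hybridisations with the dye orientations balanced. The dye coefficient is their Cy5 over Cy3 ratio relative to the median of each scan. A dye effect towards Cy5 or Cy3 is therefore against that median, and not a sign of the ratio before centring. Both coefficients are from limma fitted on all 31334 genes, a number that includes rows without a symbol. The number of arrays limits the precision.

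None of the 8 measured genes passed limma's adjusted p of 0.05 between cocaine and saline (0 of 8), where 0.0255% of all genes tested passed. Adjusted p-values lay between 0.817 and 0.979. At an unadjusted p below 0.05 there was 1 member, Clic6. The coefficients were above 0 for 5 members and below 0 for 3, with a median of 0.05 on the log2 scale, against a median of 0.04 and 59.9% above 0 over all genes with a symbol. Standard errors lay between 0.17 and 0.18, drawn by limma towards the spread of all genes. The 95% intervals of the 8 genes together spanned ratios of cocaine over saline from 0.657 to 1.67.

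**Figure D1:**
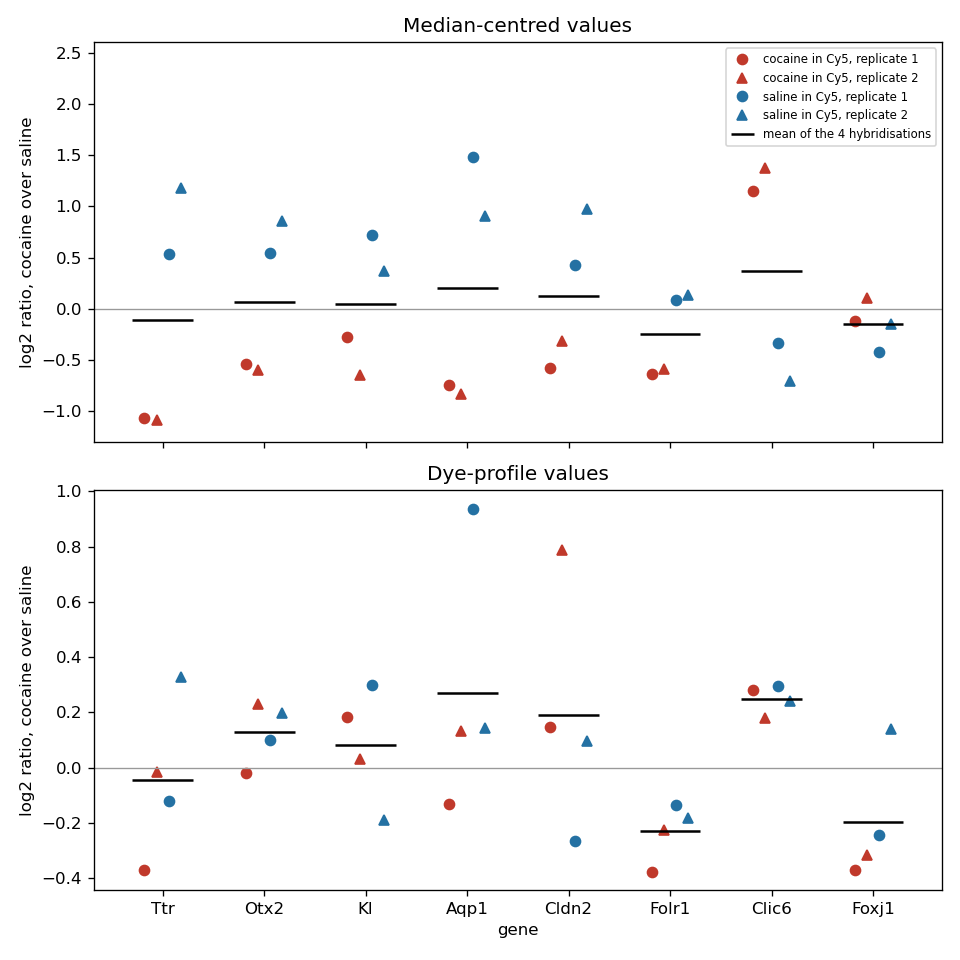
Log2 ratio of cocaine over saline (vertical axes, 2 scales) of the 8 measured genes (horizontal axis) in each of the 4 hybridisations, after median centring (upper panel) and after removal of a shared dye profile (lower panel); bars are means over n = 4. In the upper panel the orientations lie on opposite sides of 0 for every gene but Foxj1, and in the lower panel the 4 points of Clic6 lie above 0 and those of Folr1 below 0.

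Ttr encodes transthyretin, the thyroxine and retinol-binding protein carrier that choroid plexus secretes in large amounts. Its centred log2 ratio was -1.07 and -1.08 with cocaine in Cy5, and 0.53 and 1.18 with saline in Cy5. The orientations did not overlap and had opposite signs. The cocaine coefficient was -0.11 ± 0.18 (95% interval -0.48 to 0.27, limma adjusted p = 0.946) and the dye coefficient was -0.97 ± 0.18 (adjusted p = 0.00014). Of the genes with a symbol, 8.02% had a lower dye coefficient.

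Kl encodes klotho, a coreceptor for fibroblast growth factors that is shed into the fluid. Its centred ratios were -0.27 and -0.65 with cocaine in Cy5, and 0.72 and 0.37 with saline in Cy5. The cocaine coefficient was 0.04 ± 0.18 (interval -0.33 to 0.41, limma adjusted p = 0.979), the closest to 0 of the 8. The 2 Kl probes went opposite ways. Probe 17888 stood at 0.44 ± 0.20 and probe 43391 at -0.36 ± 0.20, and in the hybridisations with cocaine in Cy5 probe 17888 read 0.36 and -0.05 where probe 43391 read -0.90 and -1.24. The mean for Kl is therefore an average over probes that disagree.

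Folr1 encodes the folate receptor through which the epithelium carries folate into the fluid. It read -0.63 and -0.59 with cocaine in Cy5, and 0.09 and 0.14 with saline in Cy5. Its residual SD, pooled over both orientations, was the lowest of the 8 members. At 0.0328 on the log2 scale it was below that of all but 0.859% of genes with a symbol, against a median of 0.284. The cocaine coefficient was -0.25 ± 0.17 (interval -0.61 to 0.11, limma adjusted p = 0.868), the lowest of the 8. Taken alone, probe 16570 gave -0.09 ± 0.20 and probe 27687 gave -0.41 ± 0.20. With saline in Cy5, probe 16570 read 0.56 and -0.05 where probe 27687 read -0.38 and 0.32. The low residual SD is therefore that of an average over probes that differ. By scanner, the coefficient was -0.48 in Axon scans and -0.02 in Agilent scans.

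Water, ion and junction genes came next. Aqp1 encodes the water channel of the epithelium's apical membrane. It read -0.75 and -0.83 with cocaine in Cy5, and 1.48 and 0.91 with saline in Cy5. The cocaine coefficient was 0.20 ± 0.18 (interval -0.17 to 0.57, limma adjusted p = 0.902). It rested mostly on saline in Cy5 replicate 1, without which it was 0.06. In that hybridisation the Axon reading was 1.96, and the scanners differed by 0.961.

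Cldn2 encodes a claudin that makes tight junctions leaky to cations and water. The ratios were -0.58 and -0.31 with cocaine in Cy5, and 0.43 and 0.98 with saline in Cy5, a coefficient of 0.13 ± 0.18 (interval -0.24 to 0.50, limma adjusted p = 0.938). The scanners differed more for Cldn2 than for any other member. With cocaine in Cy5, the Axon scans read 0.03 and 0.42 and the Agilent scans -1.19 and -1.04. The mean absolute difference between scanners was 1.06 on the log2 scale, where the median over genes with a symbol was 0.678.

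Clic6 encodes a chloride intracellular channel protein found in secretory epithelia. It was the member whose called dye effect ran towards Cy5. It read 1.15 and 1.38 with cocaine in Cy5, and -0.33 and -0.70 with saline in Cy5. The cocaine coefficient of 0.37 ± 0.17 was the largest of the 8 (interval 0.01 to 0.74, a ratio of 1.29 with bounds of 1.01 and 1.67). Its unadjusted p was 0.0453 and its limma adjusted p 0.817, and 6.04% of all genes had an unadjusted p below 0.05. Both probes were above 0, probe 1234 at 0.40 ± 0.20 and probe 38004 at 0.35 ± 0.20.

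The members also hold 2 transcription factors. Otx2, a homeodomain factor needed for the choroid plexus to form and persist, read -0.54 and -0.60 with cocaine in Cy5, and 0.55 and 0.86 with saline in Cy5. Its coefficient was 0.07 ± 0.17 (interval -0.29 to 0.43, limma adjusted p = 0.969). Foxj1, the forkhead factor that switches on motile cilia genes, read -0.12 and 0.11 with cocaine in Cy5, and -0.42 and -0.15 with saline in Cy5. Its coefficient was -0.15 ± 0.17 (interval -0.51 to 0.22, limma adjusted p = 0.93). Foxj1 was the member with the smallest dye coefficient, 0.14 ± 0.17 (limma adjusted p = 0.456), an average over scanners that disagree. With cocaine in Cy5, its Axon scans read -0.554 and -0.18 and its Agilent scans 0.321 and 0.395. With saline in Cy5, the Axon scans read -0.209 and 0.44 and the Agilent scans -0.637 and -0.744.

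**Figure D2:**
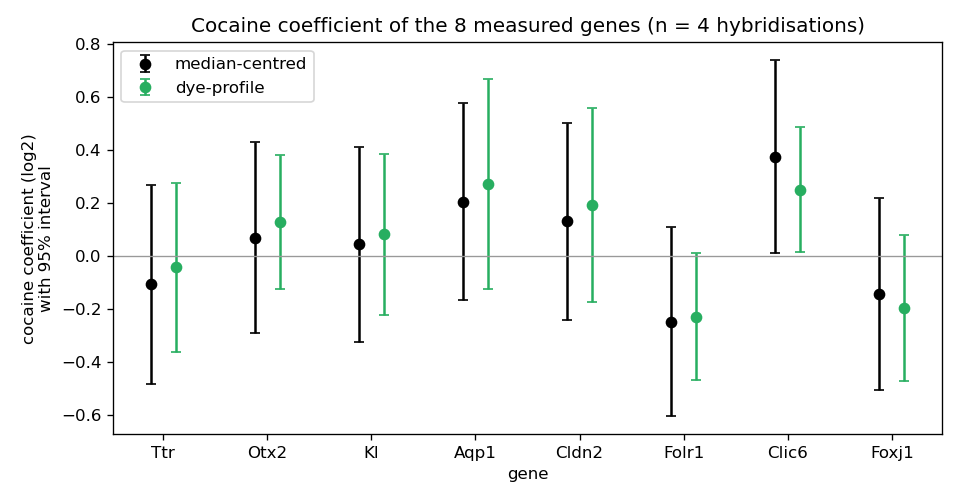
Cocaine coefficient on the log2 scale (vertical axis, points) with its 95% interval (bars) for the 8 measured genes (horizontal axis), after median centring and in dye-profile values, n = 4 hybridisations. Clic6 is the gene whose interval leaves 0 out in both versions, from 0.01 to 0.74 and from 0.01 to 0.49.

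The dye coefficient was larger in size than the cocaine coefficient for every member but Foxj1. A loess curve along a shared dye profile (each probe's average dye ratio in the Agilent scans, orientations balanced) was also taken out of each scan. In these dye-profile values limma called 0 of the 8 genes and 0 genes in all, with 1 member (Clic6) and 2271 genes at an unadjusted p below 0.05. Clic6 stood at 0.28 and 0.18 with cocaine in Cy5 and at 0.30 and 0.24 with saline in Cy5. All 4 values were above 0 and the orientations overlapped. The coefficient was 0.25 ± 0.09 (interval 0.01 to 0.49, limma adjusted p = 0.67). Folr1 read -0.38 and -0.23, and -0.13 and -0.18, all 4 below 0, with a coefficient of -0.23 ± 0.10 (interval -0.47 to 0.01, adjusted p = 0.67).

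In dye-profile values, 2 of 8 members (Clic6 and Folr1) kept 1 sign through all 4 hybridisations. Over all genes that share was 19.1%, close to the members' own. The shared profile ties the orientations together, so 4 of 4 is not 4 independent agreements. In centred values 0 of 8 members had the same sign in 4 of 4, against 1.84% of all genes. Ttr was on both sides of 0 with dye-profile values of -0.37 and -0.01, and -0.12 and 0.33 (coefficient -0.04 ± 0.13). Aqp1 read -0.13, 0.13, 0.94 and 0.14 in the same order of hybridisations, with saline in Cy5 replicate 1 far above the others. Cldn2 read 0.15, 0.79, -0.26 and 0.09, with cocaine in Cy5 replicate 2 the highest.

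For 6 of the 8 members limma called the dye coefficient at an adjusted p of 0.05, where 77.9% of all genes passed. It was towards Cy3 for Aqp1, Ttr, Otx2, Cldn2 and Kl and towards Cy5 for Clic6. Aqp1 stood at -0.99 ± 0.18, Ttr at -0.97 ± 0.18, Otx2 at -0.64 ± 0.17, Cldn2 at -0.57 ± 0.18 and Kl at -0.50 ± 0.18. Over 905 olfactory receptor genes the median was -0.80 and the span from the 5th to the 95th percentile ran from -1.24 to -0.05, which holds these 5 members and Folr1 at -0.36 ± 0.17. Olfactory receptors are hardly transcribed in brain. Over all genes with a symbol the 5th percentile was -1.06, the lower quartile -0.63 and the median 0.14. Many other genes therefore lie in the receptors' span, and lying there is not particular to these members. Clic6 at 0.89 ± 0.17 lay nearer to cytosolic ribosomal protein genes, whose median was 1.24 over 72 genes. The 2 Clic6 probes differed, at 1.40 ± 0.20 for probe 1234 and 0.38 ± 0.20 for probe 38004. Those of Kl did too, at -0.71 ± 0.20 for probe 43391 and -0.29 ± 0.20 for probe 17888 (limma adjusted p = 0.179). For Cldn2 the orientations overlapped in Axon scans, at 0.03 and 0.42 with cocaine in Cy5 and 0.08 and 0.53 with saline in Cy5. In Agilent scans they lay apart, at -1.19 and -1.04 against 0.78 and 1.43. A dye coefficient is not a level, and what sets it was not tested.

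**Figure D3:**
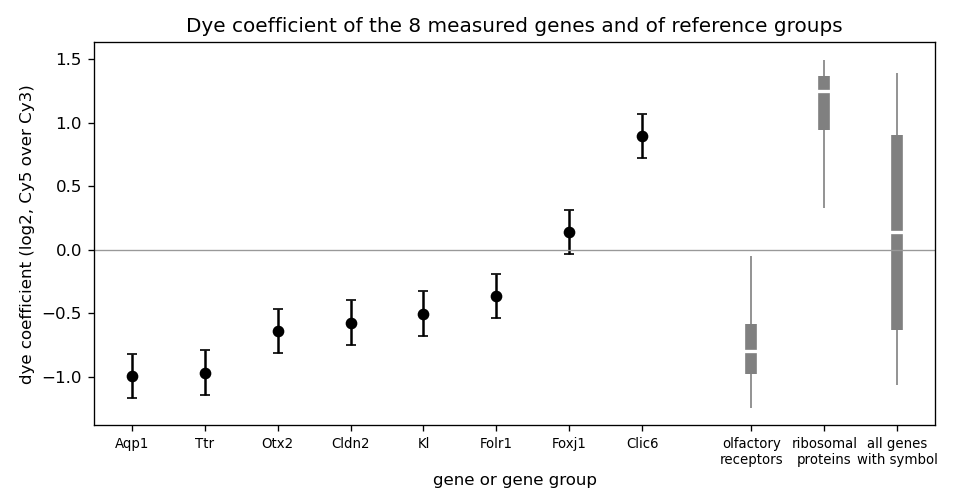
Dye coefficient (vertical axis, log2 of Cy5 over Cy3) of the 8 measured genes in rising order, with limma standard errors as bars, beside 3 reference groups given as the median (white mark), the middle 50% (thick bar) and the span from the 5th to the 95th percentile (thin line). Aqp1 and Ttr lie lowest, at -0.99 and -0.97, and Clic6 highest, at 0.89. All values are relative to the median of each scan.

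By Euclidean distance over the 4 centred log2 ratios, the genes most like Ttr were Iho1, Ms4a6c, 1700028E10Rik, Stpg2 and Ppm1n, at distances between 0.108 and 0.129. The member nearest to Ttr was Otx2 at 0.786, and 2439 genes with a symbol lay nearer. Clic6 was the farthest, at 3.91. The distance covers both dye orientations and so takes in the dye coefficient, -0.97 for Ttr, -0.64 for Otx2 and 0.89 for Clic6. It takes in the cocaine coefficient as well. That of Ttr was -0.11 ± 0.18 and not called, so nearness here is no sign of a shared response to cocaine.

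Residual SDs of the members ran from 0.0328 for Folr1 to 0.326 for Ttr, and 60.6% of genes with a symbol had a lower value than Ttr. Most of the spread of Ttr came from the hybridisations with saline in Cy5, at 0.53 and 1.18.

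RefSeq promoter sequences of build GRCm38.p6, from 250 bases before to 50 after a start, were at hand for Kl, Aqp1, Cldn2 and Otx2, 7 promoters in all. They were searched on both strands for TAATCC, the core bound by Otx factors, and TGTTTA, a forkhead core, since Otx2 and Foxj1 are themselves members. TAATCC was in 1 of the 7 promoters and in 7.06% of 32851 promoters of the same length. TGTTTA was in 1 of the 7 and in 13.4% of all. Otx2 alone had more than 1 promoter, from alternative starts that partly overlap, so 1 of 7 is not a share of genes. Both matching promoters are shown, 5′ to 3′, as the 250 bases before the start with the match in capitals. The Otx2 promoter (chr14:48665110-48665359, minus strand) holds the Otx core on its opposite strand, from 211 bases before the start, and the Cldn2 promoter (chrX:139800558-139800807, plus strand) holds the forkhead core, from 246 bases before it. A match is a description of the letters and not a binding site.
Otx2 promoter: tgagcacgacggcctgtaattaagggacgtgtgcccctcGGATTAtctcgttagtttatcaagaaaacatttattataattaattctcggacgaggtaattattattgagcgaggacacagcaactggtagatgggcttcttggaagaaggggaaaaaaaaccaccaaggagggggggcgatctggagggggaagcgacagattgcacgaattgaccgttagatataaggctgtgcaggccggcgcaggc
Cldn2 promoter: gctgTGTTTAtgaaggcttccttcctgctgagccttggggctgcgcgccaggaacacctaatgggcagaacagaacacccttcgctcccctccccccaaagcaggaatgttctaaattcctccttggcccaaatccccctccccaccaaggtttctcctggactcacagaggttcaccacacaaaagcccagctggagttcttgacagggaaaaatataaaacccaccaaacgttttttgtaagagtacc

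Other genes of the choroid plexus epithelium lay on both sides of 0. Of 27 measured genes on that list (30 listed), 0 passed limma's adjusted p of 0.05, where 0.0255% of all genes passed. An unadjusted p below 0.05 was held by 1 gene, where 6.04% of all genes had one. Coefficients were above 0 for 14 and below 0 for 13, with a median of 0.02, against 0.04 over all genes with a symbol. The smallest p was that of Kcne2, a potassium channel subunit of the apical membrane. It read -0.09 and -0.70 with cocaine in Cy5, and 1.28 and 1.25 with saline in Cy5, a coefficient of 0.43 ± 0.18 (limma adjusted p = 0.784). F5, coagulation factor V, had the next smallest, at -0.46 ± 0.22 (adjusted p = 0.822), and its replicates lay far apart, at -0.89 and -2.12 with cocaine in Cy5 and -0.02 and 1.20 with saline in Cy5. Kcne2 and F5 had coefficients of opposite sign.

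Motile cilia and ependymal genes beside Foxj1 were also spread around 0. Of 28 measured genes on the list (33 listed), 0 passed limma's adjusted p of 0.05, beside 0.0255% of all genes. An unadjusted p below 0.05 was held by 1, beside 6.04% of all genes. Coefficients were above 0 for 11 and below 0 for 17, with a median of -0.05. Over all genes with a symbol, 59.9% were above 0. Enkur, which encodes a protein of sperm and motile cilia, stood at -0.43 ± 0.18 (adjusted p = 0.784), from ratios of -1.62 and -1.07 with cocaine in Cy5 and 0.47 and 0.49 with saline in Cy5. Zmynd10, needed to assemble the dynein arms of cilia, stood at 0.31 ± 0.17 (adjusted p = 0.851), with ratios of 1.37 and 1.35 against -0.52 and -0.93. Limma called the dye coefficient for 22 of the 28 genes, 18 towards Cy3 and 4 towards Cy5, beside 77.9% of all genes.

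The pathways and families around single members held 0 called genes. Over all genes 0.0255% passed, so 0 in lists this short says little. Of all genes with a symbol, 59.9% had a coefficient above 0. For thyroid hormone and retinol transport, around Ttr, 12 genes were measured, 9 above 0, with a median of 0.23. Stra6, the receptor that takes up retinol from its plasma carrier, stood at 0.54 ± 0.17 (limma adjusted p = 0.629) and Thra, a thyroid hormone receptor, at 0.41 ± 0.18 (0.804). The median dye coefficient of the 12 genes was 1.01. Their median cocaine coefficient in dye-profile values was 0.14 with 8 of 12 above 0, against 48.7% of all genes with a symbol. In centred values without saline in Cy5 replicate 1 the list's median was 0.07. In the Klotho and FGF receptor list 4 of 10 genes were above 0 with a median of -0.03, Fgf15 at 0.40 ± 0.17 and the calcium channel gene Trpv5 at 0.28 ± 0.20. Folate genes had 6 of 8 above 0 and a median of 0.08, and the enzyme genes Mthfd1 and Fpgs stood at 0.42 ± 0.18 and 0.37 ± 0.18.

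Genes around autotaxin, the lysophosphatidate-producing enzyme that Enpp2 encodes, had a median of 0.13 with 7 of 10 above 0. In dye-profile values it was 0.05 with 5 of 10 above 0, and without cocaine in Cy5 replicate 2 it was 0.002. Plpp2, a lipid phosphate phosphatase gene, stood at 0.33 ± 0.19 and the phospholipase gene Pla1a at 0.28 ± 0.17. Claudins and tight junction genes had 4 of 13 above 0 and a median of -0.02, with Cldn19 at -0.25 ± 0.17 and Cldn9 at 0.23 ± 0.19. Aquaporins other than Aqp1 had 6 of 10 above 0 and a median of 0.01, with Aqp3 at -0.30 ± 0.17 and Aqp8 at -0.25 ± 0.20. The other chloride intracellular channel genes had 2 of 4 above 0 and a median of -0.05, with Clic4 at 0.11 ± 0.17 and Clic5 at -0.11 ± 0.17. The lowest limma adjusted p over the 9 lists from choroid plexus to chloride channels was that of Stra6. Over these 9 lists, 7 of 122 genes had an unadjusted p below 0.05, near the 6.04% of all genes.

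**Figure D4:**
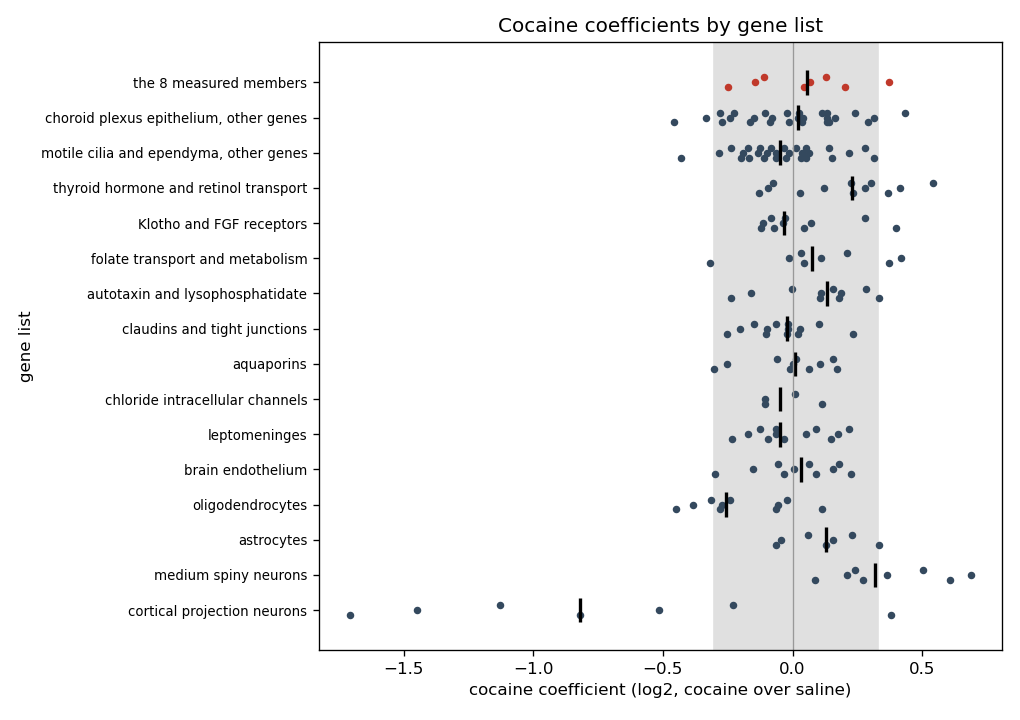
Cocaine coefficient (horizontal axis, log2 of cocaine over saline) of each measured gene, by list (vertical axis); the top line holds the 8 members, black bars are list medians and the grey band spans the 5th to the 95th percentile of genes with a symbol, from -0.30 to 0.33. The members lie inside the band except Clic6 at 0.37, and the cortical projection neuron genes reach -1.71.

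Markers of other cells the dissection could hold are given for comparison. Leptomeningeal genes had 5 of 12 above 0 and a median of -0.05, with Slc22a6 at -0.23 ± 0.17 and Foxc1 at 0.22 ± 0.17. Brain endothelial genes had 6 of 10 above 0 and a median of 0.03 (4 of 10 and -0.06 in dye-profile values), with Kdr at -0.30 ± 0.17 and Slc2a1 at 0.22 ± 0.17. Astrocyte genes had 5 of 7 above 0 and a median of 0.13 (4 of 7 and 0.008 in dye-profile values), with Aldh1l1 at 0.33 ± 0.18 and Aldoc at 0.23 ± 0.18. Oligodendrocyte genes had 9 of 10 below 0 and a median of -0.26, with Aspa at -0.39 ± 0.19 and Trf at -0.45 ± 0.24. That median was 0.05 without cocaine in Cy5 replicate 1. None of these 4 lists held a called gene, where 0.0255% of all genes passed.

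Medium spiny neuron genes had 8 of 8 above 0, where 59.9% of all genes with a symbol were. Their median was 0.32, with 0 called, Ppp1r1b at 0.69 ± 0.19 and Adcy5 at 0.61 ± 0.20. That median was 0.12 in dye-profile values, and leaving out 1 hybridisation moved it between 0.17 (saline in Cy5 replicate 1 left out) and 0.50 (replicate 2 of that orientation left out). Of these genes, 7 of 8 had a called dye coefficient, all towards Cy5. Of the 15 lists, only that of cortical projection neurons held called genes, 3 of 7 and all lower: Tbr1 fell by 1.45 ± 0.18, Nrn1 by 1.71 ± 0.24 and Neurod6 by 1.13 ± 0.19 on the log2 scale (limma adjusted p = 0.00602, 0.0143 and 0.0375, where 0.0255% of all genes passed). These 3 calls ended in dye-profile values, in Axon scans, after scale normalization, without a dye coefficient and without moderation, where 0 genes passed, and the dye-profile coefficient of Tbr1 was -1.44. This list had 6 of 7 genes below 0 and a median of -0.82, with Lamp5 above 0 at 0.38 ± 0.18. It was known from earlier results of these arrays and is no independent evidence. In the same hybridisations Ttr stood at -0.11 ± 0.18. Whether any marker list had a part in the members' ratios was not tested.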

How the data were processed

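The authors deposited a log2 ratio for 44290 rows in each of 8 scans; how they corrected background or normalized it is not stated in the sources. Per the labels, 75 ng aliquots of total RNA were amplified and labelled. Stop values, 16.61 in size, were set to missing. Medians of the columns lay between -0.885 and -0.617 with cocaine in Cy5 and between 0.637 and 0.823 with saline in Cy5, and centred hybridisations of opposite orientation correlated across genes at -0.888 to -0.752. If the difference between scanners of a hybridisation is taken to belong to the dyes, which was not tested, its sign shows how a column was turned. The scanner difference correlated at 0.514 and 0.517 between hybridisations of like orientation and at -0.542 to -0.492 between opposite ones, so the columns were read as already turned to 1 treatment direction.

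Probes were joined to rows by a staggered grid layout that earlier work on these data had found, since the annotation's order is not that of the table. With it, the first 2 probes of an accession correlated at 0.509 over 5786 pairs (dye profile), against -0.015 in file order. Every gene name rests on this layout. It gave 32042 rows with 1 symbol, 47 with several, which were not named, and 12201 without, which hold the control spots and were tested too.

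Scans were median centred, probes averaged per symbol and the 2 scans of a hybridisation averaged. The ratios of 31334 genes were fitted with limma 3.58.1 (R 4.3.3) with cocaine and dye coefficients, two-sided, Benjamini-Hochberg adjusted over all genes. Each gene had 2 residual degrees of freedom. Limma's moderation added 15.9 from the spread of all genes, for a total of 17.9 in centred values. Standard errors and intervals therefore rest mostly on that shared spread. Fitted singly in centred values, every probe of the members had the same standard error, 0.20. The loess along the dye profile used span 0.3 and 4 iterations. The fit was tested on simulated data. The labels name different mouse codes on each array. Named genes are the members, the 2 of smallest p in each list, any called gene of a list and the 5 nearest to Ttr. The members, lists, fits and alternatives were chosen with earlier results of these data known. Figures were drawn with matplotlib 3.10.9.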

Additional observations from a re-analysis of the deposited data

How the results depend on the processing

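The number of members past limma's adjusted p of 0.05 was 0 under every alternative run, with adjusted p-values of at least 0.651. At an unadjusted p below 0.05 the member was Clic6 in Agilent scans, with the median of probes, with a value in every scan required and with symbol rows alone, and Folr1 by least squares without moderation; there was none in Axon scans, after scale normalization, without a dye coefficient or without any 1 hybridisation. Every member had an unchanged coefficient without a dye coefficient, without moderation and with symbol rows alone. The same held with a value in every scan required and with the median of probes. Of 110 alternative values of single members, which include these unchanged ones, 101 kept their direction. Those that did not were Kl at -0.14 and Otx2 at -0.0045 in Axon scans, Cldn2 at -0.004 in Agilent scans and Kl at -0.36 by probe 43391 alone. Leaving out 1 hybridisation moved Ttr between -0.27 and 0.0545, Kl between -0.0508 and 0.14, Cldn2 between -0.00763 and 0.27 and Otx2 between -0.00963 and 0.14; the highest Ttr value was without saline in Cy5 replicate 1 and the lowest Cldn2 and Otx2 values without saline in Cy5 replicate 2. The cause of these turns was not tested.

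Of the 8 genes called by limma as reported, 5 had a symbol. The number called was 0 in dye-profile values, after scale normalization, without a dye coefficient, in Axon scans and by least squares without moderation (2271, 1755, 24, 1585 and 1315 at an unadjusted p below 0.05). It was 20 in Agilent scans, 30 with the median of probes, 120 with each probe on its own, 25 with symbol rows alone, an alternative chosen after seeing the data, and 66 to 288 without 1 hybridisation. Of the medians of the 15 lists, 209 of 210 alternative values moved by less than the SD of the list's median over the centred hybridisations. The exception was chloride intracellular channels at 0.08 without saline in Cy5 replicate 2. That SD takes in the dye difference between orientations, so the count does not show that the medians were stable. The oligodendrocyte median, -0.26 as reported and 0.05 without cocaine in Cy5 replicate 1, is among the 209.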
